A study of Mus musculus with 6 samples.

Results

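Integrin subunits and focal adhesion adaptors were examined in B16F10 tumors grown in the hind footpad or in the flank skin of mice. The 42 genes were taken from the deposited gene table by their symbols and comprised 25 integrin subunits and 17 adaptors. They are 42 of the 45777 genes listed there. Of these, 41 were among the 17210 genes with enough reads to be tested, and Itgb6 was not. Footpad tumors (n = 3) were compared with flank skin tumors (n = 3), with 1 total RNA library per tumor. Both groups carried the same cell line, B16F10, a pigmented mouse melanoma line, and the sample labels give Foxn1-/- hosts at an age of 8 weeks for all 6 tumors. Foxn1-null (nude) mice lack a functional thymus and are poor in mature T cells. The study also grafted this line into C57BL/6J mice, and which host the sequenced tumors had is not stated outside the labels. Its methods speak of isolated tumor cells but name no step that would separate them from host cells, so the libraries are treated here as bulk tumors. The study describes placing this line in flank and footpad at the same time, both for C57BL/6J and for Foxn1-null mice. Its legend for selected genes, footpad relative to flank, gives 3 mice. Tumors of the sites may thus share animals, and no label ties a tumor to an animal. The p-values therefore measure only the spread between these tumors.

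Integrins are transmembrane receptors made of 1 alpha and 1 beta subunit that bind matrix proteins or receptors on other cells. Their cytoplasmic tails recruit talins and kindlins, which switch the receptor into its binding state, and then adaptors such as paxillin, vinculin, filamin and the ILK-PINCH-parvin complex, which tie it to actin. These focal adhesions carry force between matrix and cytoskeleton, and the study asked how weight load on the sole bears on melanoma. Leukocytes use their own integrins, those with the beta 2 or beta 7 subunit, together with the blood-cell kindlin Fermt3.

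Read totals lay between 46529649 and 66364366 per tumor. Values are given as CPM, the read count relative to the size of the library after TMM scaling, and 3 reads equalled 0.0438 to 0.0673 CPM. Melanocyte markers, which check the label of the tumors, summed to 10246 to 18988 CPM in footpad tumors and to 15066 to 25845 CPM in flank tumors, with 1 of 10 genes higher on average in the footpad and none called. Footpad replicate 2 stood apart by keratinocyte markers (531 CPM against 1.60 to 27.2 CPM in the other tumors) and skeletal muscle markers (1100.5 CPM against 11.3 to 201 CPM), so results that turn on it are also given without it. T cell markers summed to at most 1.76 CPM in any tumor, and Cd3d and Cd3g had no read in any of the 6. In bulk tumors such as these, fewer cells of a type and less RNA per cell cannot be told apart.

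Most members were somewhat higher in footpad tumors, and few passed the test. By edgeR's quasi-likelihood test, with p-values adjusted over all 17210 genes, 3 of 41 members had an adjusted p under 0.05 and at least a 2-fold difference. These were Itgb2, the common beta subunit of leukocyte integrins, Itga5, the alpha subunit of the classical fibronectin receptor, and Tns1, the adaptor tensin 1. All 3 were higher in the footpad, which is 7.32% of the members tested against 2.89% of all genes tested. No member was called lower, against 0.872% of all genes. At an unadjusted p under 0.05 edgeR gave 16 members higher (39.0%, against 14.8% of all genes) and 2 lower, Itga1 and Itga9 (4.88%, against 10.5%). DESeq2, the tool the authors used, called 9 members higher (22.0%, against 6.71% of all genes) and none lower (against 2.05%). The 6 that it added were Itgam, Itgb3, Itga3, Itga7, Fermt3 and Lims2. In 15 members every footpad tumor was above every flank tumor (36.6%, against 17.5% of all genes), and in 3 members, Itga1, Itga8 and Fermt2, every footpad tumor was below (7.32%, against 14.9%). The median log2 fold change, footpad over flank, was 0.59 over the members, with 30 of 41 above 0, and -0.0042 over all genes tested, with 8552 of 17210 above 0.

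The calls depended on single tumors. Without footpad replicate 2 edgeR called 5 members, Itgb2, Itga5, Itga9, Fermt3 and Tns1, of which Itga9 was lower in the footpad. It called none without footpad replicate 1, without footpad replicate 3 or without flank skin replicate 3, and it called Itga5 alone without flank skin replicate 1. Without footpad replicate 3 no gene of the whole table passed, and without footpad replicate 1 or flank skin replicate 3 only 31 and 46 genes did, against 647 with all 6 tumors. Footpad replicate 1 was the highest tumor for 20 of the 41 members and flank skin replicate 1 the lowest for 15.

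**Figure D1:**
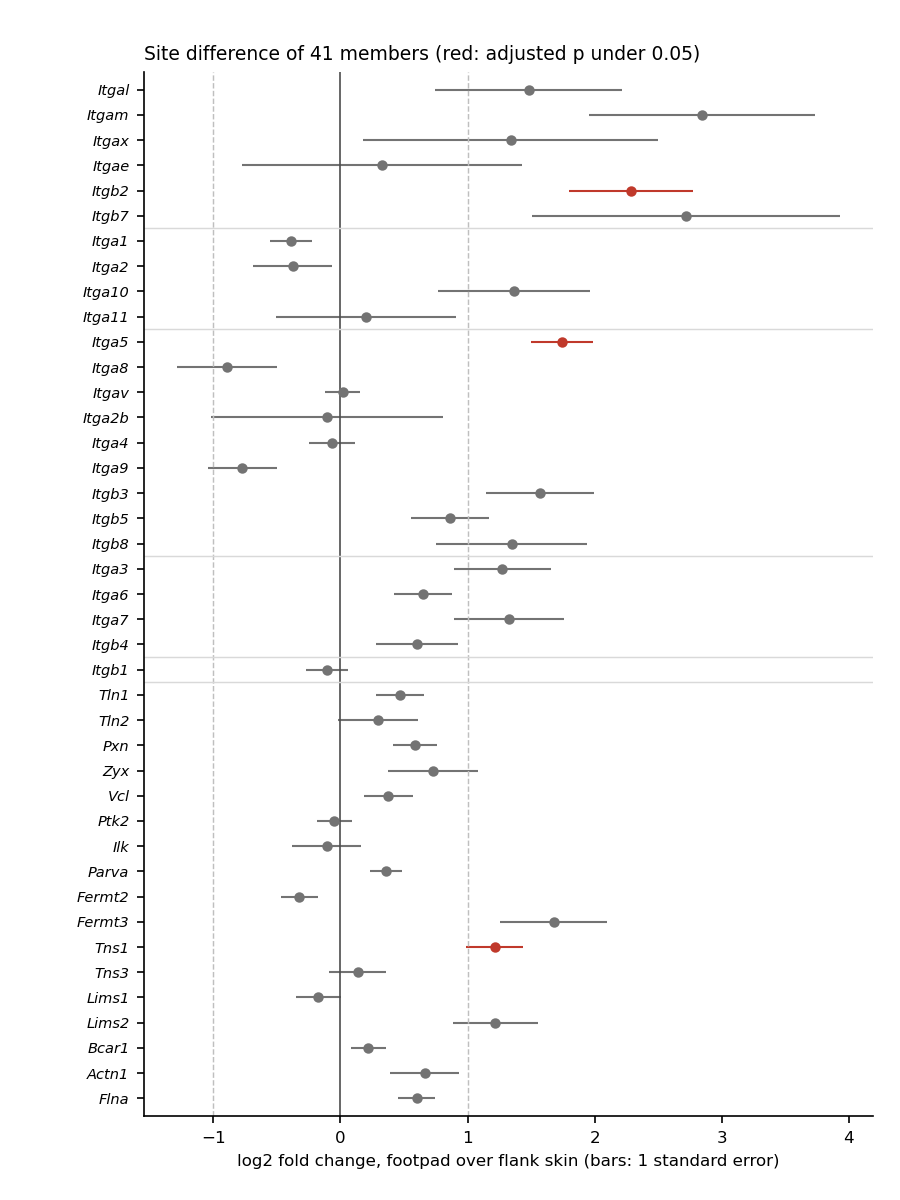
Difference between sites for the 41 members tested. Points give the edgeR log2 fold change (horizontal axis, footpad over flank skin) with bars of 1 standard error, in groups separated by grey lines from leukocyte integrins at the top to adaptors at the bottom, with dashed lines at 2-fold. The 3 members in red (Itgb2, Itga5 and Tns1) had an adjusted p under 0.05, and 30 of the 41 points lie above 0.

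The promoters of the called members found in the RefSeq table, Itga5 and Tns1, and that of Itgam, the main alpha partner of Itgb2, are printed here so that the sequences can be read beside the values of these genes. Each is the run of 250 bases just before the annotated start of the gene on GRCm38.p6, written 5′ to 3′ on the strand of the gene, with matched motifs in capitals. The Itga5 promoter lies at chr15:103366792-103367041 (minus strand), that of Tns1 at chr1:74124549-74124798 (minus strand) and that of Itgam at chr7:128062390-128062639 (plus strand).
Itga5: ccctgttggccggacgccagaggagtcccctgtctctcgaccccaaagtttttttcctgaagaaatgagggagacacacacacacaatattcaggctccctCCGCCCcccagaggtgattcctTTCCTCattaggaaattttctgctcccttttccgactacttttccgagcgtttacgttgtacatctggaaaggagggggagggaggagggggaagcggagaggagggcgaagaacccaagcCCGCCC
Tns1: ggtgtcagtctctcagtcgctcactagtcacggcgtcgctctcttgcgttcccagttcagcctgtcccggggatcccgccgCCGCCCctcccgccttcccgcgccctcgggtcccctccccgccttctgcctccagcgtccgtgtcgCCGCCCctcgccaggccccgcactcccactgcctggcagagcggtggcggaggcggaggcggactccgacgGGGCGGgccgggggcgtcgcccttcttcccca
Itgam: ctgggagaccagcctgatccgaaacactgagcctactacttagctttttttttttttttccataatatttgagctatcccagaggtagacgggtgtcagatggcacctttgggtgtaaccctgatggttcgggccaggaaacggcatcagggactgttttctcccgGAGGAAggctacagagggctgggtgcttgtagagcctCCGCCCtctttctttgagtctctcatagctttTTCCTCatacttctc
The motifs searched, on both strands, were GGAATG (TEAD), TGANTCA (AP-1), GAGGAA (PU.1), GGGCGG (SP1) and the CArG box. The Itga5 window held GAGGAA starting 127 bases and GGGCGG starting 149 and 6 bases before the gene. The Tns1 window held GGGCGG at 169, 103 and 32 bases, and the Itgam window held GAGGAA at 84 and 15 bases and GGGCGG at 47 bases. None of the 3 windows held the letters of the TEAD, AP-1 or CArG motifs. Of all 32851 promoters in the table, 32.7% held GGGCGG, 23.3% GAGGAA, 12.6% GGAATG, 6.75% TGANTCA and 1.47% a CArG box. The table listed 36 starts for 30 of the members, of which 18 held GGGCGG, 10 GAGGAA, 4 GGAATG (Itga10, Itgb1, Vcl and Flna), 2 TGANTCA (Itgax and Zyx) and 3 a CArG box (Itgb6, Vcl and Fermt2). Itgb2 had no entry.

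Leukocyte integrins were higher on average in footpad tumors for all 6 genes, and Itgb2 passed the test. Their median log2 fold change was 1.88. Itgb2 (chr10:77530329-77565708) encodes the beta 2 chain that pairs with the alpha L, alpha M and alpha X chains on white blood cells. In the order of replicates 1, 2 and 3, which is kept for all values, it was at 38.7, 13.7 and 21.3 CPM in footpad tumors and at 3.26, 8.19 and 3.66 CPM in flank tumors. Every footpad tumor was above every flank tumor, with means of 24.6 ± 12.8 and 5.04 ± 2.74 CPM (SD, n = 3 each). The log2 fold change was 2.28 ± 0.49 (SE), a 4.87-fold difference with an adjusted p of 0.0442 from edgeR. The call was kept without footpad replicate 2 (adjusted p = 0.0326 from edgeR) and without flank skin replicate 2 (0.0376), and the adjusted p was 0.0928 to 0.150 without any other single tumor.

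Itgam (chr7:128062640-128118491) encodes alpha M, or CD11b, the alpha chain of neutrophils and macrophages. Its levels were 51.3, 6.85 and 27.6 CPM in footpad tumors and 0.880, 7.60 and 3.44 CPM in flank tumors. Footpad replicate 2 lay below flank replicate 2, so the sites overlapped, and the log2 fold change of 2.85 ± 0.89 had an adjusted p of 0.102 in edgeR and of 0.0436 in DESeq2. Itgal, alpha L of lymphocytes and other leukocytes, was at 5.79, 0.817 and 2.23 CPM against 0.483, 1.61 and 1.05 CPM (log2 fold change 1.48 ± 0.74, adjusted p = 0.252 from edgeR). Itgax, alpha X or CD11c of dendritic cells and macrophages, was at 2.27, 0.438 and 0.857 CPM against 0, 0.821 and 0.575 CPM (1.34 ± 1.16, adjusted p = 0.506 from edgeR). Both overlapped between the sites, and in both the highest tumor was footpad replicate 1, without which the log2 fold changes were 0.53 for Itgal and 0.46 for Itgax. Itgb7, the beta chain of gut-homing and intraepithelial lymphocytes, was at 2.40, 0.613 and 2.20 CPM against 0.103, 0.684 and 0 CPM (2.72 ± 1.21, adjusted p = 0.211 from edgeR). Its partner Itgae, the E-cadherin-binding alpha E chain, was at 0.247, 0.233 and 0.347 CPM against 0, 0.530 and 0.128 CPM (0.33 ± 1.10, adjusted p = 0.881 from edgeR). Each had no read in 1 flank tumor, and in each flank replicate 2 was above footpad replicate 2.

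General leukocyte markers were higher alongside these genes. All 10 were higher on average in footpad tumors, 5 of them without overlap (50%, against 17.5% of all genes). EdgeR called none, though all 10 had an unadjusted p under 0.05 (100%, against 14.8% of all genes). DESeq2 called 8 higher (80%, against 6.71% of all genes). The sum of these markers ranged from 42.0 to 175 CPM in the footpad and from 13.1 to 38.6 CPM in the flank. Their order over the tumors of each site was that of the leukocyte integrin sum, which was 101, 22.6 and 54.6 CPM in footpad tumors and 4.73, 19.4 and 8.85 CPM in flank tumors. Per CPM of leukocyte markers, Itgb2 was at 0.221, 0.325 and 0.204 in footpad tumors and at 0.2497, 0.212 and 0.178 in flank tumors, so on this basis the sites overlapped. Neutrophil markers summed to 346, 6.61 and 171 CPM against 20.0, 29.1 and 4.22 CPM, with 8 of 8 tested genes higher on average. EdgeR called none of these and DESeq2 called 1 (12.5%). Macrophage markers covered a narrower range, 229 to 250.1 CPM against 157 to 207 CPM, with 9 of 10 higher on average. Of these markers edgeR called 2 (20%, against 2.89% of all genes) and DESeq2 called 3 (30%). Itgb2 per CPM of macrophage markers was higher in every footpad tumor (0.0596 to 0.155) than in any flank tumor (0.0199 to 0.0396). Dendritic, NK and B cell markers summed to at most 12.02, 0.481 and 2.08 CPM in any tumor. Itgam followed the order of the neutrophil sum over the footpad tumors but not over the flank tumors. Per CPM of neutrophil markers it was at 0.148, 1.04 and 0.162 against 0.0439, 0.261 and 0.814, and per CPM of leukocyte markers at 0.163 to 0.293 against 0.0674 to 0.197, with overlap in both. The part of leukocyte content in the Itgb2 and Itgam differences was not tested beyond these ratios.

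**Figure D2:**
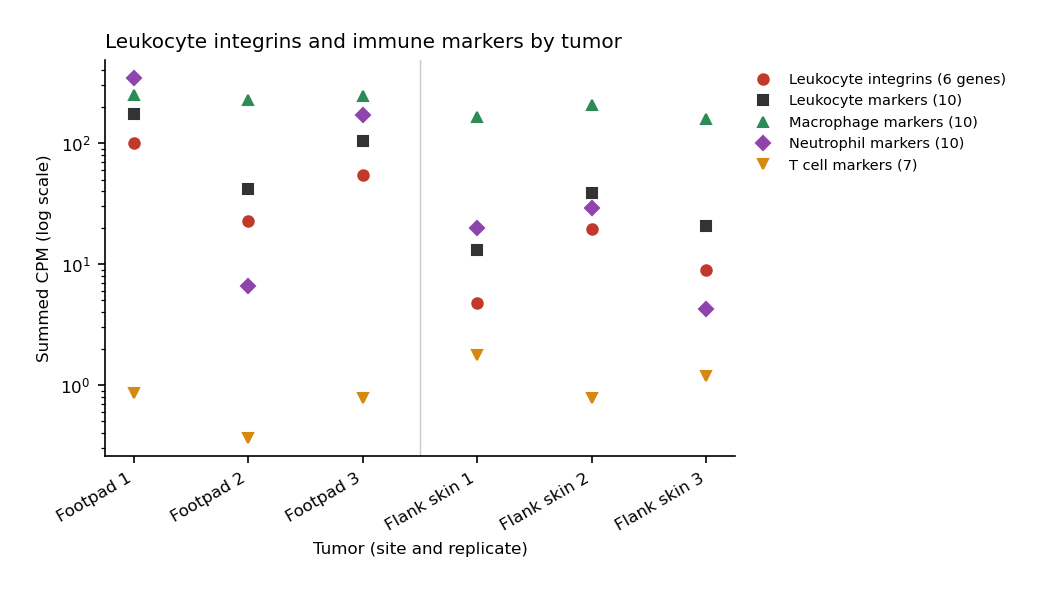
Summed CPM (vertical axis, log scale) of the 6 leukocyte integrins and of marker lists for leukocytes, macrophages, neutrophils and T cells in each of the 6 tumors (horizontal axis). The leukocyte integrin sum ran from 22.6 to 101 CPM in footpad and from 4.73 to 19.4 CPM in flank tumors, and T cell markers stayed at or below 1.76 CPM in all 6.

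Collagen-binding alpha subunits showed no common direction, with a median log2 fold change of -0.09 and none of 4 called by edgeR or DESeq2. Itga1, which with beta 1 prefers basement membrane collagen, was at 24.2, 28.6 and 25.9 CPM in footpad tumors and at 28.8, 33.2 and 40.9 CPM in flank tumors. Every footpad tumor was below every flank tumor, by a narrow margin between footpad replicate 2 and flank replicate 1, and the log2 fold change of -0.39 ± 0.16 had an adjusted p of 0.195 in edgeR. Itga2, the platelet and epithelial receptor for fibrillar collagen, was at 4.80, 2.60 and 3.80 CPM against 4.66, 3.97 and 5.88 CPM, with overlap (-0.38 ± 0.31, adjusted p = 0.484 from edgeR). The chondrocyte-type Itga10 was at 1.53, 0.540 and 0.408 CPM against 0.328, 0.257 and 0.367 CPM. Its sites did not overlap, and 1 tumor, footpad replicate 1, gave most of the difference (1.36 ± 0.60, adjusted p = 0.204 from edgeR). Itga11, the fibroblast receptor for interstitial collagen, was low throughout, at 0.539, 0.540 and 0.388 CPM against 0.379, 0.804 and 0.0959 CPM (0.20 ± 0.71, adjusted p = 0.887 from edgeR). On the same CPM scale, the fibrillar collagen genes that such receptors bind differed far more. Col1a1 was at 686, 543 and 648 CPM against 15.0, 74.3 and 19.9 CPM (log2 fold change 4.10 ± 0.62, adjusted p = 0.0206 from edgeR).

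Among fibronectin-binding subunits, Itga5 rose and the more abundant Itgav did not differ beyond its error. Of 10 listed genes 9 were tested, and the median log2 fold change was 0.02. EdgeR called 1 of the 9 (11.1%, against 2.89% of all genes). Itga5 (chr15:103344286-103366791), which pairs with beta 1 to form the receptor for the RGD motif of fibronectin, was at 125, 70.2 and 76.7 CPM in footpad tumors and at 27.6, 30.4 and 22.9 CPM in flank tumors. The sites did not overlap, and footpad replicate 1 was the highest tumor. Means were 90.5 ± 29.7 and 27.0 ± 3.77 CPM (SD, n = 3 each), a log2 fold change of 1.75 ± 0.24 (3.35-fold) with an adjusted p of 0.0165 from edgeR. In edgeR fits without 1 tumor, the adjusted p stayed under the threshold without footpad replicate 2 (0.0194), flank skin replicate 1 (0.0446) or flank skin replicate 2 (0.0344). The call was lost without footpad replicate 1, where the adjusted p was just above 0.05, without footpad replicate 3 (0.0718) and without flank skin replicate 3 (0.0793), while the log2 fold change stayed between 1.44 and 1.90.

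Itga5 is expressed by many cell types, and host cell markers differed between the sites as well. Fibroblast markers summed to 137, 134 and 193 CPM in footpad tumors and to 8.33, 35.2 and 10.8 CPM in flank tumors. All 10 were higher on average, and edgeR called 6 (60%, against 2.89% of all genes). Endothelial markers summed to 362, 320.0 and 346 CPM against 179, 219 and 191 CPM. Of these, 10 of 11 were higher on average, and edgeR called 3 (27.3%, against 2.89% of all genes). Per CPM of fibroblast markers Itga5 overlapped between the sites (0.396 to 0.910 against 0.865 to 3.31). Per CPM of endothelial markers it was higher in every footpad tumor (0.219 to 0.344) than in any flank tumor (0.120 to 0.154). The part of host cells in the Itga5 difference was not tested beyond these ratios.

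Itgav, whose product pairs with several beta chains to bind vitronectin, fibronectin and latent TGF-beta, was at 278, 315 and 308 CPM against 272, 299.8 and 318 CPM, a log2 fold change of 0.02 ± 0.14 (adjusted p = 0.948 from edgeR). The tumors of the sites were interleaved. Of its beta partners, Itgb3 (chr11:104608000-104670476), the vitronectin receptor chain of endothelium, platelets and many melanomas, was at 106, 240.5 and 101 CPM against 76.1, 39.3 and 35.5 CPM. The sites did not overlap, and footpad replicate 2 was far above the other footpad tumors. The log2 fold change of 1.57 ± 0.42 had an adjusted p of 0.0740 in edgeR and 0.00109 in DESeq2, and it was 1.04 without footpad replicate 2. Itgb5, a further partner of alpha V, was at 28.8, 29.4 and 30.01 CPM against 8.73, 21.8 and 18.0 CPM, again without overlap. Its log2 fold change of 0.86 ± 0.31, below 2-fold, had an adjusted p of 0.134 in edgeR and 0.0436 in DESeq2. Its 3 footpad values were nearly equal, and flank skin replicate 1 was far below the other flank tumors. Itgb8, which serves the release of TGF-beta, was at 1.44, 0.467 and 0.429 CPM against 0.379, 0.274 and 0.256 CPM (1.35 ± 0.60, adjusted p = 0.209 from edgeR). Its highest tumor was footpad replicate 1, without which the log2 fold change was 0.56. Itgb6, the epithelial partner, had 10 reads in footpad replicate 2, the tumor with the highest keratinocyte markers, and 0 reads in each of the other tumors, where 0 reads allow up to 0.0479 to 0.0673 CPM.

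The alpha 4 and alpha 9 chains bind fibronectin outside its RGD motif and VCAM-1 or tenascin-C. Itga4 was at 66.9, 98.2 and 89.9 CPM against 82.5, 104 and 81.2 CPM and did not differ beyond its error (-0.07 ± 0.18, adjusted p = 0.849 from edgeR). Itga9 was at 40.0, 68.6 and 34.5 CPM against 96.7, 68.2 and 79.7 CPM. Footpad replicate 2 was level with flank replicate 2, and the other footpad tumors were below every flank tumor. The edgeR log2 fold change was -0.77 ± 0.27 (adjusted p = 0.132), and leaving out footpad replicate 2 gave -1.13 (adjusted p = 0.0312). DESeq2 on all 6 tumors gave an adjusted p of 0.0439, at a change below 2-fold. Itga8, an RGD receptor of contractile mesenchymal cells, was at 0.988, 0.846 and 0.653 CPM against 2.02, 1.59 and 1.01 CPM, lower in every footpad tumor (-0.89 ± 0.39, adjusted p = 0.209 from edgeR). Itga2b, the platelet alpha chain, was at 3.97, 1.02 and 3.23 CPM against 5.83, 2.72 and 0.288 CPM, and its direction changed when a flank tumor was left out (log2 fold change -0.11 ± 0.91, and 0.86 without flank skin replicate 1). Platelet markers summed to 21.2, 12.1 and 17.8 CPM against 11.8, 9.70 and 2.48 CPM.

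**Figure D3:**
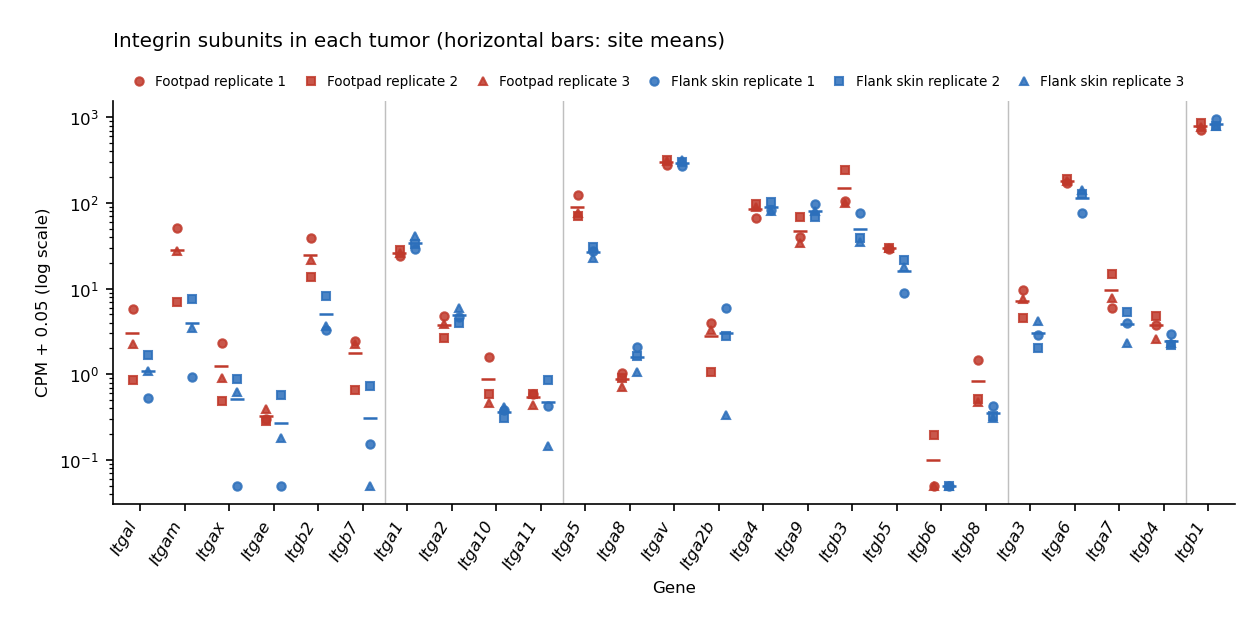
CPM of the 25 integrin subunits in each tumor (vertical axis, log scale after adding 0.05), with footpad tumors in red, flank skin tumors in blue, symbols for replicates and horizontal bars for site means. Grey lines divide, from left to right, leukocyte, collagen-binding, fibronectin-binding and laminin-binding subunits and Itgb1. Itga5 sits at 70.2 to 125 CPM in footpad and at 22.9 to 30.4 CPM in flank tumors, while the Itgav and Itgb1 symbols of the 2 sites are interleaved.

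Laminin-binding subunits were higher on average in footpad tumors for 4 of 4 genes, with a median log2 fold change of 0.96 and none called by edgeR. Itga6, the main laminin receptor chain of epithelial, endothelial and melanocytic cells, was at 173, 191 and 179 CPM against 76.2, 129 and 141 CPM. Its log2 fold change of 0.65 ± 0.23, below 2-fold, had an adjusted p of 0.133 in edgeR and 0.0467 in DESeq2. Itga3, a basement membrane receptor chain of epithelia, was at 9.50, 4.54 and 7.57 CPM against 2.85, 1.98 and 4.09 CPM (1.27 ± 0.38, adjusted p = 0.0927 from edgeR and 0.0125 from DESeq2). In neither gene did the sites overlap. Itga7, the laminin receptor of skeletal and smooth muscle, was at 5.95, 14.7 and 7.82 CPM against 3.88, 5.22 and 2.27 CPM, also without overlap (1.33 ± 0.43, adjusted p = 0.112 from edgeR and 0.0181 from DESeq2). Its highest tumor was footpad replicate 2, where skeletal muscle markers were also highest, with a sum of 1100.5 CPM, and without that tumor the log2 fold change was 0.86. Over all 6 tumors the muscle sum was 39.4 to 1100.5 CPM in the footpad and 11.3 to 201 CPM in the flank, with 10 of 10 markers higher on average and none called. Per CPM of these markers Itga7 overlapped between the sites, at 0.0467, 0.0134 and 0.198 against 0.342, 0.0260 and 0.0673. Itgb4, the hemidesmosome chain of keratinocytes, was at 3.70, 4.80 and 2.55 CPM against 2.88, 2.12 and 2.28 CPM (0.60 ± 0.32, adjusted p = 0.284 from edgeR). Without footpad replicate 2 the log2 fold change of Itgb4 was 0.36 (adjusted p = 0.538 from edgeR). The keratinocyte sum of 531 CPM in footpad replicate 2 compared with 9.21 and 27.2 CPM in the other footpad tumors and 1.60 to 10.6 CPM in flank tumors, and its part in the Itgb4 values was not tested.

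Itgb1, the beta chain shared by most matrix receptors, was at 708, 863 and 780.3 CPM in footpad tumors and at 955, 786 and 788 CPM in flank tumors. The tumors of the sites were interleaved, and the log2 fold change was -0.10 ± 0.16 (adjusted p = 0.721 from edgeR).

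Levels of different members were compared per transcript length, as the authors' FPKM. Itgb1 was the highest of the 42 members at both sites, with a mean of 167 FPKM in footpad and 178 FPKM in flank tumors, followed by Flna with 136 and 89.9 FPKM. Among alpha subunits the order in footpad tumors was Itgav (32.3 FPKM), Itga6 (27.0 FPKM), Itga5 (18.0 FPKM), Itga4 (7.76 FPKM) and Itga9 (6.16 FPKM). In flank tumors Itgav (32.1 FPKM) and Itga6 (17.4 FPKM) again led, followed by Itga9 (10.4 FPKM), Itga4 (8.14 FPKM) and Itga5 (5.47 FPKM). Among neighbours in these orders, the FPKM ranges over tumors overlapped for Itgav and Itga6 and for Itga4 and Itga9 in the footpad, and for Itga6, Itga9 and Itga4 in the flank. Of the 42 members ordered by mean FPKM, Itga5 was at rank 15 in footpad and 21 in flank tumors, and Itgb3 was at rank 10 and 18.

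Of the summed FPKM of 17 alpha subunits, Itga5 took 22.4%, 13.6% and 15.1% in footpad tumors and 7.36%, 7.18% and 5.37% in flank tumors, a mean of 17.1 ± 4.69% against 6.64 ± 1.10% (SD, n = 3 each). The shares of the sites did not overlap. The share of Itgav was lower in every footpad tumor (27.2% to 32.4%) than in any flank tumor (37.5% to 40.2%), although its own level did not differ beyond its error. Itga9 took 4.54%, 8.47% and 4.31% against 16.7%, 10.2% and 11.8%, also without overlap, and Itgam took 1.25% to 8.69% against 0.218% to 1.69%. Of the 8 beta subunits, Itgb1 made up 79.9%, 78.4% and 83.8% against 92.8%, 91.7% and 93.3%, Itgb3 made up 7.89% to 15.8% against 3.04% to 5.37%, and Itgb2 made up 1.81% to 6.37% against 0.463% to 1.38%. All 3 beta shares were separate between the sites. Shares of a sum move together by construction, and no test was made of them. The FPKM of Itgb1 was 1.504, 1.80 and 1.73 times the summed FPKM of the 12 alpha chains that pair with it in footpad tumors, and 2.74, 2.02 and 1.97 times in flank tumors.

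**Figure D4:**
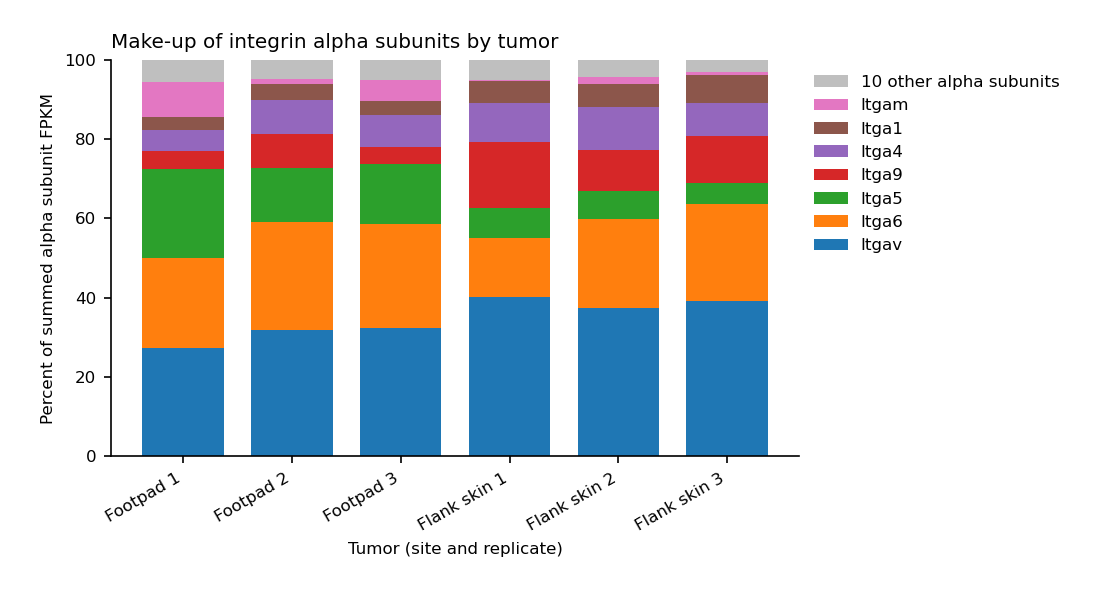
Share of each alpha subunit in the summed FPKM of the 17 alpha subunits (vertical axis, percent) in each of the 6 tumors (horizontal axis), stacked. Itga5 takes 13.6% to 22.4% in footpad and 5.37% to 7.36% in flank tumors, and Itgav and Itga6 are at the base of each column.

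Of the adaptors, 13 of 17 were higher on average in the footpad, with a median log2 fold change of 0.38. EdgeR called 1 of them (5.88%, against 2.89% of all genes). Tns1 (chr1:73910232-74124548), tensin 1, which binds the beta subunit tail and actin in mature fibrillar adhesions, was at 39.1, 34.3 and 25.99 CPM in footpad tumors and at 11.9, 18.0 and 13.0 CPM in flank tumors. Every footpad tumor was above every flank tumor, with means of 33.1 ± 6.62 and 14.3 ± 3.24 CPM (SD, n = 3 each). The log2 fold change was 1.21 ± 0.22 (2.32-fold), with an adjusted p of 0.0316 from edgeR. The edgeR call remained without footpad replicate 2 (adjusted p = 0.0486 from edgeR) or flank skin replicate 2 (0.0350) and was lost without each of the other tumors (0.0661 to 0.122). It was also lost with limma, with an adjusted p of 0.0619 on log2(FPKM + 1) and 0.0575 on log2(FPKM + 0.1). Per CPM of fibroblast markers Tns1 was lower in every footpad tumor (0.134 to 0.285) than in any flank tumor (0.511 to 1.43), and per CPM of endothelial markers the sites overlapped (0.0752 to 0.108 against 0.0664 to 0.0823). Smooth muscle and pericyte markers summed to 104, 217 and 122 CPM against 130, 86.2 and 63.8 CPM. Of these, 7 of 8 tested genes were higher on average, and edgeR called 1 (12.5%, against 2.89% of all genes). The part of host cells in the Tns1 difference was not tested beyond these values. Its relative Tns3 was at 152, 108 and 132 CPM against 84.3, 144 and 129 CPM, with overlap (0.14 ± 0.23, adjusted p = 0.739 from edgeR).

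Of the kindlins, which activate integrins together with talin, Fermt3 is the form of blood cells and Fermt2 that of most other cells. Fermt3 was at 9.59, 4.29 and 8.23 CPM in footpad tumors and at 1.95, 3.42 and 1.53 CPM in flank tumors, without overlap. Its log2 fold change of 1.68 ± 0.42 had an adjusted p of 0.0632 in edgeR, 0.0390 without footpad replicate 2, and 0.00165 in DESeq2. Per CPM of leukocyte markers Fermt3 overlapped between the sites (0.0548 to 0.102 against 0.0745 to 0.149). Fermt2 had the opposite sign, at 181, 170.2 and 182 CPM against 247, 189 and 233 CPM, lower in every footpad tumor (-0.32 ± 0.15, adjusted p = 0.215 from edgeR). Of the PINCH proteins, which bind ILK in the ILK-PINCH-parvin complex, Lims2 was at 7.95, 4.73 and 5.92 CPM against 2.23, 3.68 and 2.08 CPM (1.22 ± 0.33, adjusted p = 0.0761 from edgeR and 0.00757 from DESeq2). Lims2 did not overlap between the sites, whereas the more abundant Lims1 did, at 166, 146 and 182 CPM against 227, 159.7 and 171 CPM (-0.17 ± 0.18, adjusted p = 0.571 from edgeR).

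The abundant actin-linking adaptors differed by less than 2-fold. Flna, filamin A, which crosslinks actin and binds beta tails, was at 1336, 1225 and 1286 CPM against 804, 899 and 837 CPM. The sites were far apart for their narrow spread, and the log2 fold change of 0.60 ± 0.15 had an adjusted p of 0.0609 in edgeR and 4.4e-05 in DESeq2. Tln1, the main talin, was at 776, 550.5 and 739 CPM against 444, 568 and 484 CPM, and Tln2 was at 81.7, 82.8 and 113 CPM against 40.6, 93.0 and 91.9 CPM. Both overlapped between the sites, with adjusted p = 0.176 for Tln1 and 0.587 for Tln2 from edgeR. Pxn, the scaffold paxillin, was at 53.9, 35.3 and 48.4 CPM against 32.0, 29.5 and 30.1 CPM, without overlap (0.59 ± 0.17, adjusted p = 0.0920 from edgeR and 0.0299 from DESeq2). Leaving out footpad replicate 2 lowered its adjusted p to 0.0375 in edgeR, at a change below 2-fold. Parva, alpha-parvin, which binds ILK, did not overlap either (91.3 to 103 against 68.9 to 81.0 CPM, 0.36 ± 0.13). The mechanosensitive LIM protein Zyx (log2 fold change 0.73 ± 0.36), the actin crosslinker Actn1 (0.66 ± 0.27) and the talin-binding Vcl (0.38 ± 0.19) were higher on average with overlap, with edgeR adjusted p of 0.246, 0.179 and 0.261. The kinase Ptk2 (FAK, -0.05 ± 0.14), the pseudokinase Ilk (-0.11 ± 0.27) and the docking protein Bcar1 (p130Cas, 0.22 ± 0.14) also overlapped between the sites, with edgeR adjusted p of 0.859, 0.836 and 0.361.

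**Figure D5:**
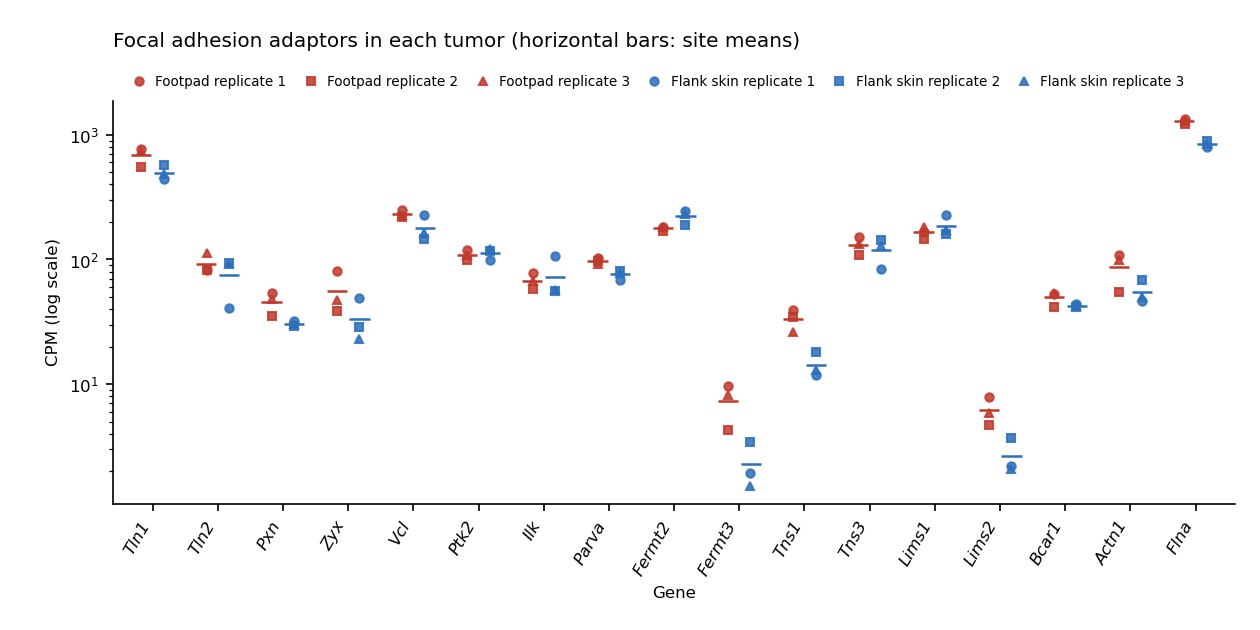
CPM of the 17 adaptors in each tumor (vertical axis, log scale), with footpad tumors in red, flank skin tumors in blue, symbols for replicates and horizontal bars for site means. Tns1, Fermt3, Lims2, Pxn, Parva and Flna have every footpad tumor above every flank tumor, and Fermt2 has every footpad tumor below.

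Ratios of members in the same tumor, which do not depend on the scaling between libraries, were compared in 8 pairs by two-sided exact permutation tests. With 3 tumors per site the smallest p that such a test can give is 0.1, which becomes 0.2 after adjustment over the 8 pairs, so none could pass. In 4 pairs, 1 each of alpha chains, kindlins, tensins and PINCH proteins, the sites did not overlap (exact p = 0.1, adjusted p = 0.2). The log2 ratio of Itga5 to Itgav was higher in footpad tumors by 1.69, with values of -1.16, -2.16 and -2.01 against -3.30, -3.30 and -3.79. That of Fermt3 to Fermt2 was higher by 1.99, with -4.24, -5.31 and -4.47 against -6.98, -5.78 and -7.24, and that of Tns1 to Tns3 was higher by 1.06, with -1.96, -1.66 and -2.35 against -2.82, -3.00 and -3.31. The log2 ratio of Lims1 to Lims2 was 4.38, 4.95 and 4.94 in footpad tumors and 6.67, 5.44 and 6.36 in flank tumors, and its mean dropped by 1.40. The other 4 pairs overlapped. Their differences in log2 ratio were 1.00 for Itga11 to Itga1 (exact p = 0.5), 0.62 for Itgam to Itgb2 (exact p = 0.5), 0.57 for Itgb3 to Itgb5 (exact p = 0.6) and 0.08 for Tln1 to Tln2 (exact p = 0.8).

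Among 46 further adhesion genes from general knowledge, 45 were tested, with a median log2 fold change of 0.20. EdgeR called 3 higher (6.67%, against 2.89% of all genes) and DESeq2 called 10 higher (22.2%, against 6.71%), and neither called any lower. At an unadjusted p under 0.05 edgeR gave 18 higher (40.0%, against 14.8%) and 3 lower (6.67%, against 10.5%). In 20 every footpad tumor was above every flank tumor (44.4%, against 17.5%). In 3, the adaptors Nck1 and Nck2 and the small GTPase Rap1a, every footpad tumor was below (6.67%, against 14.9%). The genes called by edgeR were Flnc, the muscle filamin, Layn, a hyaluronan receptor that binds talin, and Palld, the actin scaffold palladin. Palld was at 34.8, 23.98 and 28.2 CPM against 9.19, 9.99 and 10.03 CPM (log2 fold change 1.57 ± 0.18, adjusted p = 0.0130 from edgeR). Flnc was at 38.6, 43.2 and 32.3 CPM against 1.91, 10.8 and 3.32 CPM (2.83 ± 0.59, adjusted p = 0.0413 from edgeR). Layn was at 6.02, 2.58 and 8.37 CPM against 0.707, 1.25 and 0.399 CPM (2.85 ± 0.58, adjusted p = 0.0388 from edgeR). None of these 3 overlapped between the sites.

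Of 22 integrin ligands 21 were tested, with a median log2 fold change of 1.23. EdgeR called 6 higher (28.6%, against 2.89% of all genes) and DESeq2 called 11 higher (52.4%, against 6.71%). Neither tool called a ligand lower. At an unadjusted p under 0.05 edgeR gave 13 higher (61.9%, against 14.8% of all genes) and 0 lower (against 10.5%). Fn1, fibronectin, the ligand of the Itga5 receptor, was at 1419.6, 833 and 998 CPM in footpad tumors and at 236, 262 and 190.4 CPM in flank tumors (2.24 ± 0.24, adjusted p = 0.0105 from edgeR). Fbn1, fibrillin 1, an RGD protein of elastic microfibrils, was at 199, 266 and 236 CPM against 8.59, 39.1 and 9.57 CPM (3.61 ± 0.61, adjusted p = 0.0253 from edgeR). The other 4 were the collagen genes Col1a1, Col1a2, Col3a1 and Col4a1, with log2 fold changes of 4.10, 3.74, 4.08 and 1.02 (edgeR adjusted p between 0.0206 and 0.0481). The fibroblast marker sum, given above, was also higher in every footpad tumor than in any flank tumor. Its order over the footpad tumors was not that of Fn1, Fbn1 or Col1a1. Over the flank tumors its order was that of Fbn1 and Col1a1 but not that of Fn1. The part of fibroblasts in the ligand differences was not tested. Over both lists of further genes the edgeR calls fell from 9 to 1 without footpad replicate 1 and to 0 without footpad replicate 3 or without flank skin replicate 3.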

How the data were processed

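RNA of 3 footpad and 3 flank skin B16F10 tumors was sequenced with stranded total RNA libraries. Per the labels and the methods, the authors trimmed reads with Trimmomatic, aligned them with HISAT2 2.1.0 to mm10 and checked them with FastQC 0.11.7, and they deposited whole read counts per RefSeq gene without normalization. The authors also deposited FPKM values, which they scaled by length and depth. The counting program is not given in the sources used here. Site and replicate came from the sample titles.

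Counts were fitted in R 4.3.3 with edgeR 4.0.16 (TMM, filterByExpr, glmQLFit, glmQLFTest) over 17210 genes with Benjamini-Hochberg adjustment, and called where the adjusted p was below 0.05 and the difference at least 2-fold. Standard errors were approximated as the log2 fold change divided by the square root of F. Ratios used counts with a prior of 0.5. Alternatives were DESeq2 1.42.0, limma 3.58.1 on log2(FPKM + 1) and log2(FPKM + 0.1), upper-quartile and RLE scaling, no filter, a filter of 10 reads in every tumor, other thresholds, the replicate number as a block, and leaving out each tumor. The fits were tested on simulated data. Tumors of a site differed by a chi-square of 62.3 to 578 per gene, far above sampling noise, and none was a repeat of another. Floors of 3 reads cover counting error only.

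The members and lists were chosen with earlier results of these data known. The rule for named genes gave values in each tumor for integrins, called members and both genes of each ratio, and ranges or fold changes for other adaptors, of which Flna and Pxn were given in full after their values were seen. Of the further lists, the genes past both thresholds were all named, 9 in both lists together. The rule had set at most 8 by adjusted p. Nck1, Nck2 and Rap1a were added after their values were seen. A result for 1 gene is not reported here. Coordinates and promoters are from RefSeq on GRCm38.p6, where all 42 members matched by identifier. Scripts ran in Python 3.11.15.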

Additional observations from a re-analysis of the deposited data

How the results depend on the processing

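The 3 member calls were unchanged with upper-quartile or RLE scaling, without a filter and with 10 reads required in every tumor. DESeq2 called 9 members (2 leukocyte, 2 fibronectin-binding, 2 laminin-binding and 3 adaptors) and 21 of the further adhesion genes and ligands, against 9 with edgeR. An adjusted p limit of 0.1 gave 7 members (1 leukocyte, 2 fibronectin-binding, 1 laminin-binding and 3 adaptors) and 17 further genes. Limma on log2(FPKM + 1) or log2(FPKM + 0.1) called 2 members and 0 adaptors. Without 1 tumor the calls ranged from 0 to 5 for members, 0 to 1 for leukocyte integrins, 0 to 2 for fibronectin-binding integrins, 0 to 2 for adaptors and 0 to 13 for the further genes.

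With the replicate number as a block, 0 members, 0 leukocyte integrins, 0 fibronectin-binding integrins, 0 adaptors, 0 further genes and 0 of all 17210 genes were called. Deviations of same-numbered tumors from their site means correlated at -0.115 to 0.0544, and 0 of 6 tumors correlated best with their own number. With 3 tumors per site, these correlations cannot show whether same-numbered tumors shared an animal. In sign flips of same-numbered tumors, no ratio could go below an exact p of 0.25.

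Over 570 refits of single members, 529 kept their direction and side of the threshold, 8 newly passed it, 16 no longer did and 17 changed sign. Only Itgb2, Itga5 and Tns1 were called to begin with, so all 16 losses were theirs. Refits of the other members that stayed uncalled with the same sign count among the 529. The log2 fold change of Itga2b was 0.0086 and 0.25 with limma at pseudocounts of 1 and 0.1 and 0.25 under the block. Without 1 tumor it ranged from -0.65 to 0.86, that of Itgae from -0.26 to 2.05, Itga11 from -0.28 to 1.03, Itgav from -0.044 to 0.069, Itga4 from -0.19 to 0.077, Tln2 from -0.0052 to 0.47, Ptk2 from -0.13 to 0.015, Ilk from -0.27 to 0.26 and Tns3 from -0.064 to 0.29. The log2 ratio of Tln1 to Tln2 differed by -0.13 to 0.39. None of these passed the test in any of these fits, and the cause of the sign changes was not tested. Members under about 1 CPM, such as Itgae, Itga11, Itgax and Itgb8, rest on few reads.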
